A study of Mus musculus with 12 samples.

Results

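The miRNAs described here come from 4 imprinted genes: miR-483 from Igf2, miR-675 from H19, miR-335 from Mest, and miR-296 and miR-298 from the transcript antisense to Gnas. They were taken by name from the table of mature miRNAs, and gave 9 of its 1966 entries: mmu-miR-483-3p, mmu-miR-483-5p, mmu-miR-675-3p, mmu-miR-675-5p, mmu-miR-335-3p, mmu-miR-335-5p, mmu-miR-296-3p, mmu-miR-296-5p and mmu-miR-298-5p. All 9 passed the filter on low counts. The samples were whole quadriceps muscles of WT C57BL/6J mice, taken 1, 5, 14 or 90 days after birth (called P1, P5, P14 and P90, the last being adults), with no treatment named in the labels. Each age had 3 small RNA libraries, which made 12. The study, which concerns miRNAs altered in mice lacking the splicing factor Mbnl1, used these ages to ask how many of those miRNAs also change as muscle develops.

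An imprinted gene is transcribed mainly from the copy of one parent. Igf2, a growth factor that drives growth before birth, and Mest are expressed from the paternal copy, as is the Gnas antisense transcript, whereas the long noncoding RNA H19 is expressed from the maternal copy. Igf2 and H19 are neighbours that share enhancers and a control region, and both are known to be abundant in fetal and newborn muscle and to decline as the animal matures. The miRNAs are cut from hairpins inside these transcripts, so that 1 hairpin can yield 2 mature arms, named 5p and 3p by their side of the hairpin.

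The mature sequences are shown because 4 of the 5 hairpins are represented by both arms, which lets the arms be compared within a library, and because the members differ widely in base composition. Sequences and hairpin positions were taken from RefSeq on build GRCm38.p6, and host genes from the GENCODE annotation of GRCm39. Capitals mark the seed (bases 2 to 8), the stretch that pairs with target mRNAs. The hairpin of miR-483 lies at chr7:142654924-142654996 on the minus strand, in an intron of Igf2:
mmu-miR-483-3p: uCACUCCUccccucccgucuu
mmu-miR-483-5p: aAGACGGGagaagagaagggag
On the same strand and chromosome, 77.8 kb away, the hairpin of miR-675 lies at chr7:142577064-142577147, in an exon of H19:
mmu-miR-675-3p: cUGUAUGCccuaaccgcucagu
mmu-miR-675-5p: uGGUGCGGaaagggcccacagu
The hairpin of miR-335 lies at chr6:30741299-30741396 on the plus strand, in an intron of Mest:
mmu-miR-335-3p: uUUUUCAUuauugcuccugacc
mmu-miR-335-5p: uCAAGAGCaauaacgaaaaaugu
The hairpins of miR-296 (chr2:174267047-174267125) and miR-298 (chr2:174267504-174267585) are 378 bases apart on the minus strand. The first overlaps an exon and the second an intron of Gnasas1, the Gnas antisense transcript:
mmu-miR-296-3p: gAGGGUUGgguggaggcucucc
mmu-miR-296-5p: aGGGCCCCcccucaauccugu
mmu-miR-298-5p: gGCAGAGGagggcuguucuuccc

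On the opposite strand, the lncRNA Gm33148 spans the hairpins of miR-483 and miR-675, and the lncRNA Gm75121 those of miR-296 and miR-298, in neither case with an exon at the hairpin. The strand setting of the counting is not given in the sources used here. The 9 seeds were all different, and none was found in any other of the 1679 mouse mature miRNAs of the RefSeq table. Each mature sequence had 1 exact match in the GRCm39 genome, so no member had a second identical full-length copy. Whether shorter or mismatched reads from other places were counted was not tested. The share of G and C bases ran from 30.4% in miR-335-5p and 36.4% in miR-335-3p to 66.7% in miR-296-5p and 68.2% in miR-296-3p. The 2 arms of miR-483 had 61.9% (3p) and 54.5% (5p). MiR-483-5p consisted of 95.5% purines and miR-483-3p of 9.52%. The other arm of the miR-298 hairpin, miR-298-3p, was outside the list and had between 0 and 50 counts per library. It had 0 counts in all 3 P90 libraries, and a count of 0 allows up to 3 counts in each.

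Library totals were between 20363495 and 53126984 counts. Levels are given as normalized CPM, that is, CPM of the library total after scaling with TMM factors, which were 1.24 to 1.73 at P1 to P14 and 0.247 to 0.384 at P90. Every one of the 6 skeletal muscle markers (among them miR-1a-3p, miR-133a-3p and miR-206-3p) was counted in all libraries. Their summed level was at least 142916 normalized CPM, and no library younger than P90 exceeded 275266. Newborn (P1) libraries had muscle marker sums between 154577 and 208206, whereas the adult sums were between 1455650 and 2374550. Part of this rise lies in the scaling, because the low adult TMM factors raise the normalized CPM of every miRNA. The sum over all 809 miRNAs tested was between 587844 and 684462 normalized CPM at P1 and between 2603540 and 4049920 at P90. From P1 to P90, 3 of these markers rose and 2 fell (edgeR adjusted P value under 0.05). Over all 809 miRNAs tested, 25.2% were higher and 41.2% lower by the same rule, which also holds for the markers below. The sum of the 3 fibroblast markers (miR-199a-3p, miR-199a-5p and miR-214-3p) ran over 11123 to 13497, 7904 to 10258, 4263 to 5720 and 1850 to 2636 normalized CPM at P1, P5, P14 and P90. All 3 fell between P1 and P90, all 4 endothelial and smooth muscle markers rose, and 2 of 6 blood markers rose and 2 fell. Of 6 epithelial markers 3 fell and 0 rose, with sums of 62.1 to 100.2 normalized CPM at P1 and 28.3 to 31.7 at P90. The liver marker miR-122-5p fell as well, with 44.2 to 366 normalized CPM at P1 and 14.99 to 47.5 at P90, and of 3 nerve markers 1 rose. No marker of any list had a library at 0. The part of these shifts in the levels below was not tested, and in whole muscle fewer cells of a type and less RNA per cell cannot be told apart.

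All 9 members changed with age (edgeR adjusted P value, Padj, at most 0.00134), where 72.4% of the 809 miRNAs tested did. All 9 were lower at P90 than at P1 and than at P14. Their median log2 fold change (log2FC) from P1 to P90 was -5.92, beside -0.72 over all miRNAs tested. The background was 66.4% of miRNAs called in that comparison and 41.2% called lower. Together the 9 members made up 1.80% ± 0.0455 (SD, n = 3) of all counts at P1, 1.47% ± 0.0377 at P5, 0.603% ± 0.0404 at P14 and 0.0104% ± 0.00104 in the adult. Their summed level was between 10595 and 12645 normalized CPM in the P1 libraries, 11033 and 12198 in P5, 3401 and 4616 in P14, and 289 and 374 in P90. By step, both arms of miR-335 and miR-298-5p passed the test from P5 to P14 and from P14 to P90. The arms of miR-483, miR-675 and miR-296 passed from P14 to P90 alone, a contrast between members that was not itself tested. P14 was not tested against P1, so a gradual early change could be missed. Both miR-296 arms were lower in every P14 library than in any P1 library, and miR-483-5p was higher. How many of all miRNAs tested separate between 2 ages in this way is not given here. Separation of libraries, here and below, is therefore a description and does not stand for a test.

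**Figure D1:**
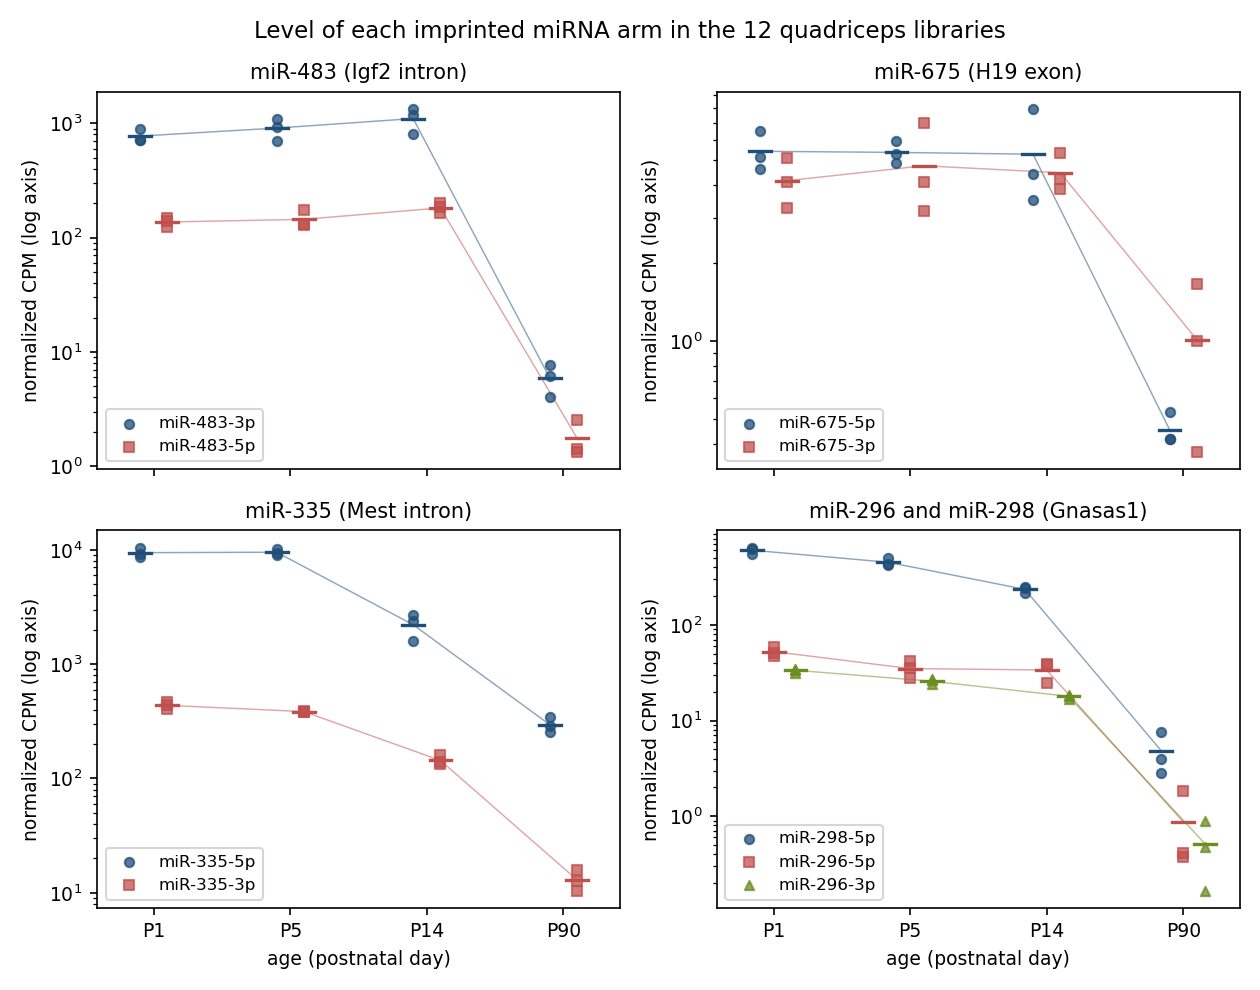
Level of each of the 9 miRNA arms (normalized CPM, log axis) against age in postnatal days, in 4 panels by host gene. Points are single libraries, horizontal bars are the mean of 3 libraries and thin lines join the means. For every arm the P90 points lie below all points of that arm at the younger ages. The share of all miRNAs tested that separate in this way is not given here. Both miR-335 arms and miR-298-5p are already lower at P14 than at P5.

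MiR-335, from Mest, was the most abundant of the group at every age. MiR-335-5p, which has been studied as a suppressor of metastasis, was at 10452, 8646 and 9201 normalized CPM in the 3 P1 libraries and at 8999.7, 10256 and 9322 at P5. It was at 2372, 1583 and 2677 at P14, and in the adult at 256, 286 and 345. The P1 and P5 values overlapped, the P14 libraries were all below them, and the P90 libraries were lower again. Its log2FC was 0.01 (SE 0.174, Padj = 0.991) from P1 to P5, -2.11 (SE 0.181, Padj = 2.98e-07) from P5 to P14 and -2.90 (SE 0.187, Padj = 1.17e-09) from P14 to P90. Over the whole period, P90 was 31.9-fold below P1 (log2FC -4.996, SE 0.206, Padj = 3.81e-12).

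The other arm followed the same course at a lower level. MiR-335-3p was at 465, 438 and 405 normalized CPM at P1, at 382, 381 and 389.9 at P5, at 159.6, 133 and 139 at P14, and in the adult at 15.9, 10.4 and 12.7. No 2 ages overlapped, although the step from P1 to P5 did not pass the test (log2FC -0.18, SE 0.152, Padj = 0.676). It fell from P5 to P14 (log2FC -1.42, SE 0.155, Padj = 3.03e-06) and from P14 to P90 (-3.47, SE 0.170, Padj = 3.8e-11). From P1 to P90 the decline was 33.6-fold (log2FC -5.07, SE 0.183, Padj = 9.98e-13).

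The timing of the miR-335 decline differed in a fit that removed the trend of level over GC content. In the P14 libraries, levels rose with the GC content of the miRNA by 0.377 to 0.561 log2 units per 10 GC points, over 309 miRNAs, and in the P90 libraries they fell by 0.380 to 0.591. The slopes at P1 and P5 were between -0.0123 and 0.0749. Because the slopes went with age, a technical effect of base composition and a true change with age cannot be told apart. Removing the trend may remove either. MiR-335-5p and miR-335-3p were the most AU-rich members. With the trend removed from each library, the P5 to P14 log2FC was -0.73 (Padj = 0.000547) for miR-335-5p and -0.69 (Padj = 0.00615) for miR-335-3p, and the P14 to P90 values were -4.46 (Padj = 2.4e-12) and -4.59 (Padj = 2.17e-11). Both steps kept their calls, and the P1 to P90 values were -5.17 and -5.48. On the log2 scale the larger part of the drop fell after P14 in both fits, and that part was larger with the trend removed. This order was not kept under every scaling. With upper-quartile in place of TMM factors, miR-335-5p was at -1.835 from P5 to P14 and -1.336 from P14 to P90. For miR-335-3p these values were -1.139 and -1.894.

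MiR-483, from Igf2, showed no called change up to P14 and a large fall after it. MiR-483-3p, the more abundant arm, was at 895, 713 and 715 normalized CPM at P1, at 1097, 934 and 699 at P5 and at 801, 1173 and 1333 at P14. The 3 young ages overlapped, and neither early step passed the test (log2FC 0.23, SE 0.226, Padj = 0.696 and 0.28, SE 0.226, Padj = 0.362). At P90 the libraries were at 7.67, 6.15 and 3.998, from 129, 116 and 48 counts. The fall from P14 to P90 was 184-fold (log2FC -7.52, SE 0.306, Padj = 5.21e-12), the eighth lowest log2FC of the 809 miRNAs tested in that step. Against P1, the P90 level was 129-fold lower (log2FC -7.01, SE 0.30, Padj = 5.06e-12).

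MiR-483-5p was at 123, 139 and 149 normalized CPM at P1, at 175, 131 and 129 at P5 and at 163, 199 and 184 at P14. The P14 libraries were all above the P1 libraries, but the P1 to P5 and P5 to P14 steps did not pass the test (log2FC 0.08, SE 0.197, Padj = 0.933 and 0.33, SE 0.197, Padj = 0.197). With upper-quartile scaling the second step passed in the upward direction (log2FC 0.60, Padj = 0.0315), and with the GC trend removed its sign turned (-0.12, Padj = 0.638). At P90 the level was 2.56, 1.33 and 1.42, which was 77.0-fold below P1 (log2FC -6.27, SE 0.261, Padj = 4.22e-12) and 102-fold below P14 (-6.68, SE 0.265, Padj = 4.73e-12). With the GC trend removed, the P14 to P90 log2FC was -6.15 (Padj = 1.25e-11) for the 3p and -6.11 (Padj = 4.1e-12) for the 5p arm.

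MiR-675, from H19, was the least abundant at the 3 young ages, and its arms had the smallest changes of the group from P1 to P90. MiR-675-5p was at 6.49, 5.15 and 4.64 normalized CPM at P1, at 5.96, 4.87 and 5.29 at P5, at 3.52, 4.44 and 7.90 at P14, and in the adult at 0.416, 0.530 and 0.416. The 3 young ages overlapped throughout, and all P90 libraries were below them. The early steps had a log2FC of -0.01 (SE 0.283, Padj = 0.991) and -0.03 (SE 0.284, Padj = 0.950). From P14 to P90 it fell 11.4-fold (log2FC -3.51, SE 0.365, Padj = 4.47e-07) and from P1 to P90 11.7-fold (-3.55, SE 0.364, Padj = 3e-07), which rested on 7, 10 and 5 counts in the adult libraries. With the GC trend removed the P1 to P90 value was -2.26 (Padj = 7.04e-05).

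MiR-675-3p was at 3.28, 5.10 and 4.14 normalized CPM at P1, at 6.99, 3.19 and 4.13 at P5 and at 4.24, 5.32 and 3.88 at P14. The adult libraries were at 1.67, 0.371 and 1.00, from 28, 7 and 12 counts. The young ages overlapped and the adult libraries lay below them, the first of the 3 being the highest. Its log2FC was 0.19 (SE 0.381, Padj = 0.902) and -0.09 (SE 0.381, Padj = 0.869) in the early steps, -2.16 (SE 0.439, Padj = 0.000535) from P14 to P90 and -2.06 (SE 0.438, Padj = 0.000631) from P1 to P90. Without the first P90 library the last 2 values were -2.78 (Padj = 0.000178) and -2.72 (Padj = 0.000174). This was the 1 member whose adult decline did not pass under every scaling: with upper-quartile factors the P1 to P90 log2FC was -0.17 (Padj = 0.744) and the P14 to P90 value -0.59 (Padj = 0.254).

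The Gnas antisense miRNAs had 1 abundant and 2 low members. MiR-298-5p, studied as a regulator of the protease BACE1, was at 618, 553 and 643 normalized CPM at P1, at 497, 434 and 424 at P5 and at 245, 247 and 215 at P14. In the adult it was at 3.93, 2.86 and 7.66, from 66, 54 and 92 counts. No 2 ages overlapped, and the level was lower at each later age. The step from P1 to P5 did not pass the test (log2FC -0.42, SE 0.229, Padj = 0.411), whereas the steps to P14 (-0.94, SE 0.230, Padj = 0.00372) and to P90 (-5.64, SE 0.287, Padj = 6.24e-11) did. From P1 to P90 it fell 128-fold (log2FC -7.00, SE 0.304, Padj = 6.01e-12), close to the 129-fold fall of miR-483-3p. With the GC trend removed the 3 steps were -0.33 (Padj = 0.520), -1.23 (Padj = 0.000401) and -3.99 (Padj = 1.65e-09), and the P1 to P90 value was -5.55 (Padj = 4.23e-11).

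MiR-296-5p was at 51.3, 59.3 and 47.3 normalized CPM at P1, at 42.0, 27.9 and 35.05 at P5, at 24.6, 37.7 and 39.1 at P14, and in the adult at 0.416, 0.371 and 1.83. The P1 libraries were above those of P5 and P14, which overlapped each other. The first 2 steps did not pass the test (log2FC -0.59, SE 0.321, Padj = 0.412 and -0.05, SE 0.320, Padj = 0.916), and the fall from P14 to P90 did (-5.40, SE 0.432, Padj = 1.83e-08). From P1 to P90 it was 65.7-fold lower (log2FC -6.04, SE 0.438, Padj = 3.87e-09), and without the third P90 library, which held 22 of its 36 adult counts, the log2FC was -7.04 (Padj = 2.46e-10) and that from P14 to P90 -6.35 (Padj = 9.4e-10).

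MiR-296-3p was at 31.8, 34.9 and 34.2 normalized CPM at P1, at 26.9, 26.3 and 24.0 at P5, at 18.2, 18.7 and 17.0 at P14, and in the adult at 0.476, 0.901 and 0.167. No 2 ages overlapped. Its early steps had a log2FC of -0.38 (SE 0.225, Padj = 0.450) and -0.52 (SE 0.227, Padj = 0.0757). The second of these was past the threshold with DESeq2 (-0.59, Padj = 0.00107) and with the GC trend removed (-0.77, Padj = 0.0190), among other alternatives. The fall from P14 to P90 was 32.4-fold (log2FC -5.02, SE 0.309, Padj = 6.95e-10) and from P1 to P90 60.6-fold (-5.92, SE 0.313, Padj = 7.26e-11). Without the second P90 library these were -5.66 (Padj = 7.72e-10) and -6.62 (Padj = 1.1e-10). With the GC trend removed, the P1 to P90 log2FC was -4.42 (Padj = 8.33e-08) for miR-296-5p and -4.10 (Padj = 1.49e-08) for miR-296-3p.

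Counted by step, 0 of the 9 members passed from P1 to P5, where 4.45% of all miRNAs tested did. None had an unadjusted P value under 0.05 in edgeR, the smallest Padj was 0.411, and DESeq2 also called 0. From P5 to P14, 3 of 9 passed, all lower (miR-335-5p, miR-335-3p and miR-298-5p), beside a background of 44.4% called and 26.3% called lower. The log2FC of the members in this step ran from -2.11 to 0.33, with a median of -0.09, beside -0.07 over all miRNAs tested. With the GC trend removed all 9 were negative, the medians were -0.54 and -0.17, and 4 members passed, miR-296-3p being added. From P14 to P90, 9 of 9 passed, all lower, where 59.1% of all miRNAs were called and 36.7% were called lower. Here the median was -5.02 in the members and -0.55 over all miRNAs tested. Ranked by log2FC over the 809 miRNAs of this last interval, the 3p and 5p arms of miR-483 stood at places 8 and 18 from the lowest, miR-298-5p at 53, miR-296-5p and miR-296-3p at 64 and 84, miR-675-5p at 150, miR-335-3p and miR-335-5p at 152 and 175, and miR-675-3p at 215.

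**Figure D2:**
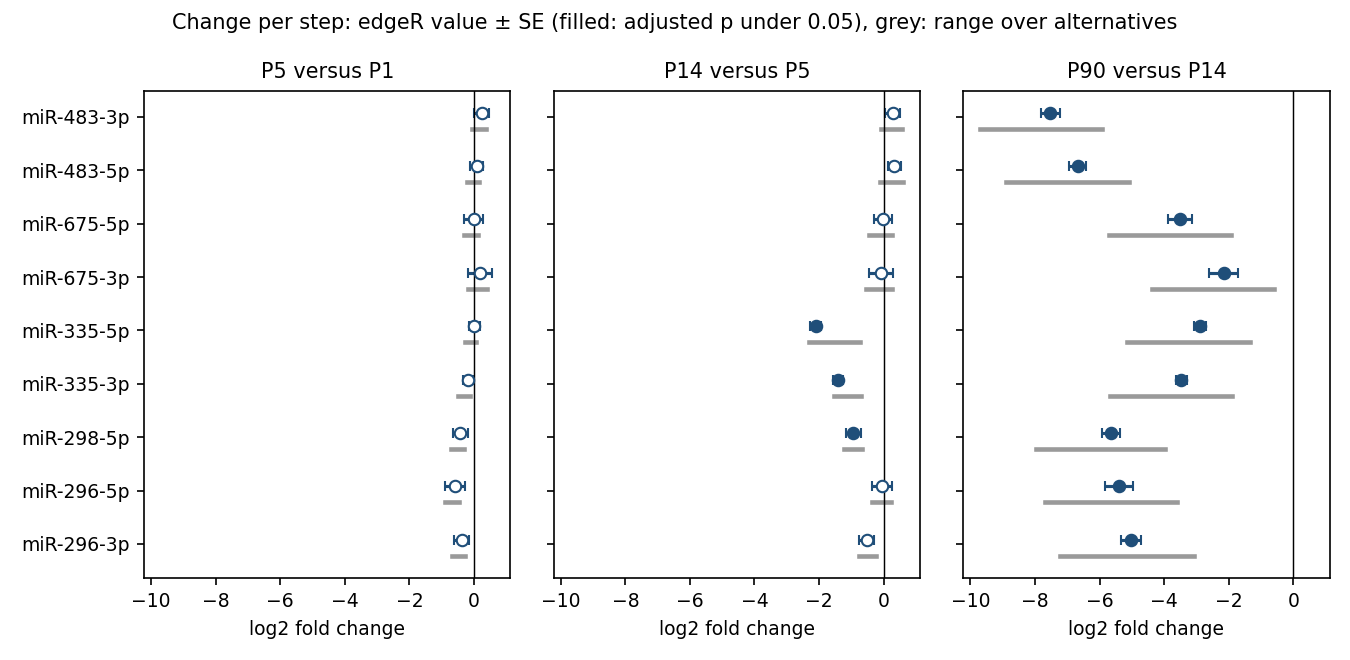
Log2FC of each member in 3 panels, 1 per step between neighbouring ages; circles are the edgeR values with SE bars, filled where Padj was under 0.05, and grey bars below them span the values of 21 alternative settings. No circle is filled from P1 to P5, the 2 miR-335 arms and miR-298-5p are filled from P5 to P14, and all 9 are filled and left of 0 from P14 to P90.

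The size of every adult change depended on how the libraries were scaled. The median log2FC of all 809 miRNAs from P1 to P90 was -0.72 with TMM factors, -0.37 with RLE factors, 1.177 with upper-quartile factors and -2.97 with library totals alone. The split of miRNAs called higher and lower was 204 and 333 with TMM, 391 and 192 with upper-quartile factors, and 36 and 647 with library totals. From P14 to P90, 36.7% were lower with TMM, 19.7% with upper-quartile factors and 77.6% with library totals. All 9 members had a negative P1 to P90 log2FC under each of these scalings, with miR-675-3p not passing under upper-quartile factors. A scaling factor shifts all miRNAs of a library alike, so the distance of a member from the median of all miRNAs is nearly fixed by construction. That distance was -6.31 to -6.25 log2 units for miR-483-3p over the 4 scalings, -6.37 to -6.29 for miR-298-5p, -4.31 to -4.28 for miR-335-5p and -1.35 to -1.34 for miR-675-3p. Removing the GC trend moved members unequally: the median was then -0.61, miR-483-3p -5.92, miR-296-3p -4.10 and miR-335-3p -5.48.

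**Figure D3:**
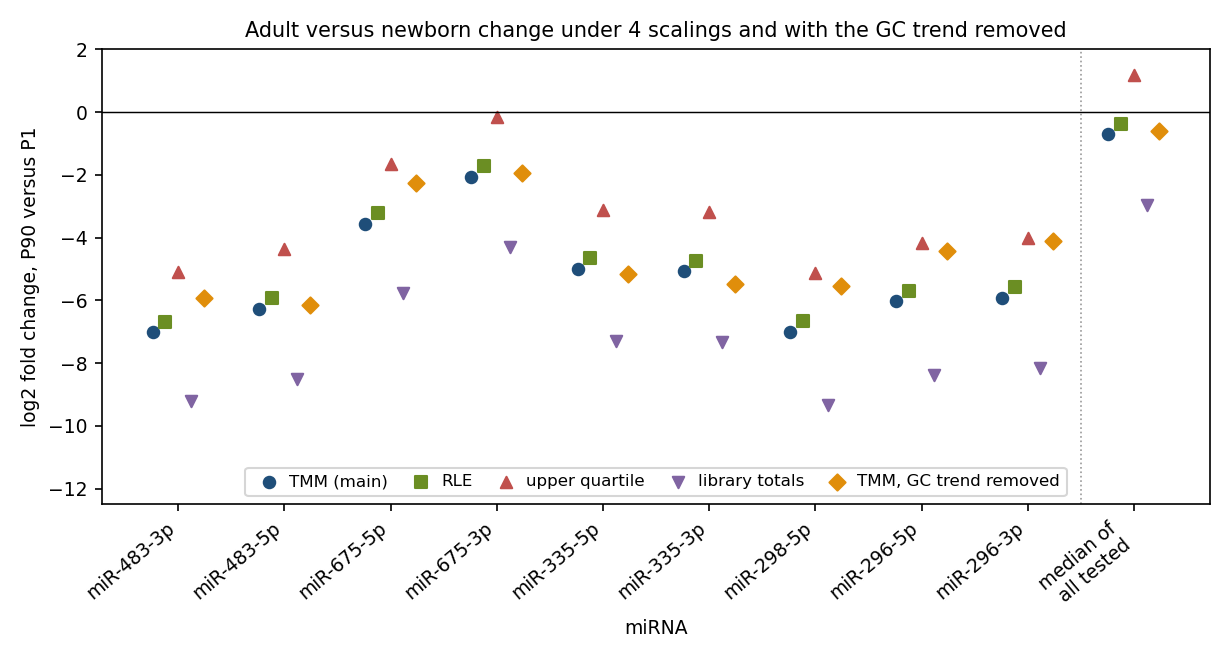
Log2FC from P1 to P90 (vertical axis) of each member and, at the right, of the median miRNA tested, under 4 scalings and with the GC trend removed, 1 symbol per setting. A change of scaling shifts all symbols by about the same amount, the median miRNA included, whereas the GC setting shifts members unequally; the symbols of all 9 members stay below 0, miR-675-3p reaching -0.17 with upper-quartile factors.

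Ratios between members within a library do not depend on scaling. At P1, the members ranked, by mean level, as miR-335-5p (9433 normalized CPM), miR-483-3p (775), miR-298-5p (605), miR-335-3p (436), miR-483-5p (137), miR-296-5p (52.6), miR-296-3p (33.6), miR-675-5p (5.43) and miR-675-3p (4.18). Of these neighbours, only the 2 arms of miR-675 overlapped between libraries. At P90 the order was miR-335-5p (295.7), miR-335-3p (12.996), miR-483-3p (5.94), miR-298-5p (4.82), miR-483-5p (1.77), miR-675-3p (1.01), miR-296-5p (0.873), miR-296-3p (0.515) and miR-675-5p (0.454). At P90 both arms of miR-335 stood clear of the rest, miR-483-3p and miR-298-5p overlapped each other and lay above miR-483-5p, and every neighbouring pair from miR-483-5p down overlapped between libraries. The mature arms are of like length, so no length correction was made, and the preference of adapter ligation for certain sequences, which bears on levels of different miRNAs, was not tested.

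MiR-335-5p held 82.1% ± 0.522 (SD, n = 3) of the counts of the 9 members at P1 and 82.9% ± 2.42 at P5. At P14 its share was 55.7% ± 8.27, while the miR-483 arms together had gone from 7.94% ± 0.194 at P1 to 32.9% ± 7.47. At P90 miR-335-5p held 91.1% ± 2.19 and miR-483 2.47% ± 1.04. The number of miR-335-5p counts per miR-483-3p count was 11.7, 12.12 and 12.9 at P1, 8.201, 10.98 and 13.3 at P5, 2.96, 1.35 and 2.01 at P14, and 33.4, 46.4 and 86.3 at P90. The ratio thus had its lowest values at P14 and its highest in the adult, with both ages apart from P1 and P5. It was chosen after the values were seen and is given without a test. The GC trends of the P14 and P90 libraries ran in the same directions as these shifts, and with the trend removed the P5 to P14 log2FC was -0.73 for miR-335-5p and -0.07 for miR-483-3p.

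Both chromosome 7 miRNAs fell, but by unequal amounts. MiR-675 made up 1.05% ± 0.124 (SD, n = 3) of the miR-675 and miR-483 counts at P1, 0.961% ± 0.191 at P5 and 0.759% ± 0.0477 at P14. In the adult libraries it made up 16.9% (95% Clopper-Pearson interval 12.07 to 22.7), 10.8% (6.39 to 16.7) and 20.7% (12.6 to 31.1), out of 207, 158 and 82 counts. Every P90 library was above all others, and the mean was 16.13% ± 5.03, which was 15.085 points above P1. An exact permutation test of the spread between ages, over all 15400 partitions of the 12 libraries, gave p = 0.00266, or 0.0160 adjusted over the 6 shares tested. The GC contents of the arms were 54.5% and 63.6% in miR-675 and 54.5% and 61.9% in miR-483.

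The Gnas antisense miRNAs also shifted against each other. MiR-298-5p made up 87.5% ± 1.77 of the miR-296 and miR-298-5p counts at P1, 88.2% ± 0.628 at P5 and 81.9% ± 2.96 at P14. At P90 it was 81.5% (71.3 to 89.2), 69.2% (57.8 to 79.2) and 79.3% (70.8 to 86.3), out of 81, 78 and 116 counts, with a mean of 76.7% ± 6.54. The adult and P14 ranges overlapped, and both lay below those of P1 and P5. The exact permutation test gave p = 0.00675 (0.0203 adjusted over the 6 shares). The call was lost when any of 6 single libraries was left out, with adjusted p = 0.0539 to 0.0828: the first or the third of P1, any of P5 or the second of P14.

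**Figure D4:**
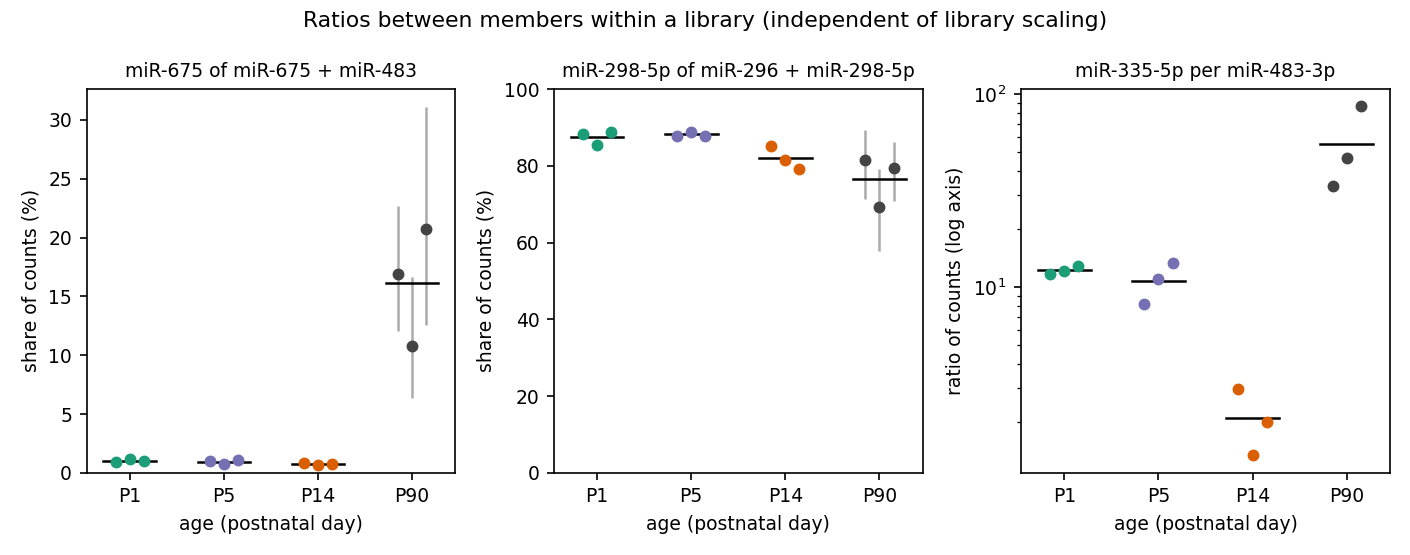
Ratios between members within each of the 12 libraries, grouped by age in postnatal days: the miR-675 share of the miR-675 and miR-483 counts (left, %), the miR-298-5p share of the miR-296 and miR-298-5p counts (middle, %) and miR-335-5p counts per miR-483-3p count (right, log axis). Points are libraries, bars are means and vertical lines are 95% Clopper-Pearson intervals of the shares, drawn for every library and widest at P90. The left panel is near 1% until P14 and 10.8% to 20.7% at P90, and the right panel dips at P14 and peaks at P90.

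In every library the 5p arm was the major one of miR-335 and the minor one of miR-483. The 5p arm made up 95.6% ± 0.338, 96.1% ± 0.268, 93.7% ± 1.39 and 95.7% ± 1.33 of the miR-335 counts at P1, P5, P14 and P90 (exact permutation test p = 0.0489, 0.0733 adjusted over the 6 shares). Of the miR-483 counts, the 5p arm made up 15.2% ± 2.77, 13.8% ± 1.64, 14.5% ± 2.398 and 23.0% ± 4.57 (exact p = 0.0264, adjusted 0.0529). The adult libraries had 25.0% (18.7 to 32.2), 17.7% (11.8 to 25.1) and 26.2% (16.0 to 38.5), all above the highest young library, but the adjusted value missed the threshold. For miR-675 and miR-296 the 5p arm made up 36.1% ± 20.3 and 55.8% ± 32.2 in the adult, after 56.5% ± 8.68 and 60.9% ± 2.57 at P1 (exact p = 0.269 and 0.871, adjusted 0.323 and 0.871). The adult libraries held 17 to 35 counts of miR-675 and 15 to 24 of miR-296, and the 5p share of miR-296 ran from 29.2% (12.6 to 51.1) to 91.7% (73.0 to 99.0). The 5p share differed widely between the adult libraries, and the call for either hairpin depended on single ones: without the second P90 library the adjusted p for miR-675 was 0.0428, and without the third that for miR-296 was 0.0166.

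Other imprinted clusters were counted from lists made by name. Of the Dlk1-Dio3 region, a large cluster of maternally expressed miRNAs, 105 of 111 listed arms were tested. From P5 to P14, 58 were lower and 4 higher (median log2FC -0.76), and from P14 to P90, 100 were lower and 0 higher (median -4.94). From P1 to P90, 102 were lower and 1 higher, with a median of -5.67, beside -5.92 in the 9 members. Its 3 most abundant members, miR-434-3p, miR-127-3p and miR-379-5p, had a P1 to P90 log2FC of -4.66, -5.25 and -4.80. Of the paternally expressed cluster in an intron of Sfmbt2, 34 of 80 listed arms were tested, and 30 were lower and 0 higher at P90 than at P1 (median -2.84). From P5 to P14, 24 were lower and 0 higher (median -1.64), and from P14 to P90, 9 were lower and 2 higher (median -0.66). Over all 809 miRNAs tested, 26.3% were lower and 18.0% higher from P5 to P14 (median -0.07). The shares were 36.7% and 22.4% from P14 to P90 (median -0.55), and 41.2% and 25.2% from P1 to P90 (median -0.72). The Sfmbt2 median from P14 to P90 was thus close to that of all miRNAs. MiR-467e-5p, miR-669c-5p and miR-467d-5p had a P1 to P90 log2FC of -2.97, -3.22 and -2.37. Many arms of the Sfmbt2 cluster are near-identical, so reads could be split between them.

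Across the 12 libraries, which share an age in threes, the 5 leading arms were set against the 343 other miRNAs with a mean of at least 10 normalized CPM. MiR-483-3p was most like miR-494-3p (Pearson r of log2 CPM 0.996), miR-1193-3p (0.994) and miR-668-3p (0.994). MiR-335-5p was most like miR-495-3p, miR-376c-3p and miR-136-3p (0.996 each). MiR-298-5p was most like miR-667-3p (0.997), miR-666-3p (0.997) and miR-381-3p (0.995), and miR-296-5p like miR-667-3p (0.987), miR-412-3p (0.987) and miR-503-3p (0.985). MiR-675-5p was most like miR-679-5p (0.983), miR-206-3p (0.983) and miR-130a-3p (0.980). All of these except miR-206-3p, miR-130a-3p and miR-503-3p were on the Dlk1-Dio3 list. That list held 105 of the 809 miRNAs tested, 102 of them lower at P90 than at P1. Its share of the 343 miRNAs compared is not given here. Among the members, the 2 arms of miR-483 had r = 0.997, those of miR-335 0.985, those of miR-296 0.931 and those of miR-675 0.851, while miR-296-5p and miR-298-5p had 0.985. Some pairs from different loci were as high, such as miR-483-3p with miR-675-5p (0.985), miR-335-3p with miR-298-5p (0.983) and miR-483-3p with miR-296-3p (0.972). Others were lower, such as miR-335-5p with miR-483-3p (0.874) and with miR-675-3p (0.778). The adult libraries lay far from the young ones for every member, and r was not computed within an age.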

How the data were processed

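Small RNA libraries were made from 200 ng of total RNA of mouse quadriceps. Per the study's methods and processing notes, the authors selected reads by length with cutadapt 1.18, aligned them to GRCm38 with Bowtie2 2.4.1 and counted them per mature miRNA of miRBase with featureCounts 2.0.1. The deposited values are raw read counts. Strand and multi-mapping options of the counting are not given in the sources used here.

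Groups came from the sample titles, and labels do not say that equal replicate numbers share an animal. Deviations of same-numbered libraries from their age means correlated at -0.345 to 0.249, so no pairing was used. Replicate counts differed beyond sampling noise (chi-square per degree of freedom 155.2 to 1056).

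MiRNAs were filtered with filterByExpr and tested with edgeR 4.0.16 (R 4.3.3) in 1 quasi-likelihood model of age over 12 libraries (2-sided F-tests, TMM factors). Benjamini-Hochberg adjustment covered the 809 miRNAs kept, and 424 miRNAs had no count. SE came from the F statistic. Within-library shares were tested with an exact permutation test (2-sided, scipy 1.17.1). Alternatives were RLE, upper-quartile or no factors, no filter, DESeq2 1.42.0, a replicate block, removal of the GC trend (GC content available for 85% of the miRNAs tested), 2 ages alone and leaving out each library. The fit was tested on simulated data.

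Named miRNAs were all 9 members, the 3 most correlated with the leading arm of each hairpin, and the 3 most abundant of each other imprinted list. Members and lists were chosen with earlier results of these data known. P values measure the spread between libraries. The counts are of reads, without molecular identifiers, and both the intervals and the floor of 3 counts cover counting error only.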

Additional observations from a re-analysis of the deposited data

How the results depend on the processing

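All 9 members kept a negative log2FC at P90 against P1 and P14 under all 21 alternatives, and all passed except miR-675-3p with upper-quartile factors. Over these alternatives the P1 to P90 log2FC ran from -9.22 to -5.11 for miR-483-3p, -7.28 to -3.12 for miR-335-5p, -9.33 to -5.14 for miR-298-5p and -5.78 to -1.67 for miR-675-5p. With the replicate block, the numbers of members called remained 0, 3, 9 and 9 (P1 to P5, P5 to P14, P14 to P90 and P1 to P90). From P1 to P5, 1 member was called with library totals and 1 with only the 2 ages compared, in both cases miR-298-5p (-0.72, Padj = 0.0470 and -0.45, Padj = 0.0376).

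The log2FC values that turned sign all belonged to early steps and passed under none of the settings named. The P90 minus P1 differences of the miR-335 and miR-296 5p shares also turned sign when single libraries were left out, as given below. From P1 to P5 with library totals, miR-335-5p was -0.28, miR-483-3p -0.067, miR-483-5p -0.23 and miR-675-3p -0.13. In that step miR-335-5p was also -0.0085 without the filter and -0.014 with 2 ages, and miR-675-5p was 0.027 with DESeq2 and with RLE, 0.066 and 0.056 with the GC trend removed without and with the block, and 0.014 with upper-quartile factors. From P5 to P14, library totals, 2 ages and upper-quartile factors gave 0.23, 0.043 and 0.23 for miR-296-5p, 0.20, 0.0069 and 0.19 for miR-675-3p and 0.22, 0.057 and 0.24 for miR-675-5p. Removing the GC trend without and with the block gave -0.068 and -0.044 for miR-483-3p and -0.12 and -0.11 for miR-483-5p. Leaving out 1 library gave, from P1 to P5, -0.065 to 0.076 for miR-335-5p, -0.087 to 0.15 for miR-483-5p, -0.20 to 0.42 for miR-675-3p and -0.13 to 0.12 for miR-675-5p, and from P5 to P14, -0.20 to 0.11 for miR-296-5p, -0.31 to 0.26 for miR-675-3p and -0.47 to 0.17 for miR-675-5p.

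The P90 minus P1 difference of the miR-483 5p share was 8.22 points with 1 count added to each miRNA (adjusted p = 0.0383). Without single libraries the differences were 6.14 to 10.4 points for the miR-483 5p share, -31.8 to -12.4 for miR-675, -0.253 to 0.899 for miR-335 and -23.0 to 8.24 for miR-296. The shares passed without the second P90 library for miR-483 (adjusted p = 0.0282) and miR-675 (0.0428), without the first for miR-335 (0.0377) and without the third for miR-296 (0.0166). The miR-298-5p share differed by -13.2 to -7.06 points and the miR-675 share of the miR-675 and miR-483 counts by 12.8 to 17.8, the latter with adjusted p = 0.00429 to 0.0257. The causes of these shifts were not tested. From P5 to P14 the split of all miRNAs called higher and lower was 146 and 213 with TMM, 207 and 165 with upper-quartile factors and 183 and 160 with library totals. From P1 to P5 it was 22 and 14 with TMM, 3 and 37 with library totals, 29 and 33 without the filter, 49 and 29 with DESeq2, 9 and 6 with the replicate block and 39 and 48 with only the 2 ages. The adult values of miR-675 and miR-296 rest on 2 to 28 counts per library.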
